A study of Mus musculus with 24 samples.

Results

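The genes described here are 9 transcriptional regulators whose mRNA was measured in the mouse hippocampus: the zinc-finger factors Egr1, Egr2, Egr3 and Egr4, their corepressors Nab1 and Nab2, and the nuclear receptors Nr4a1, Nr4a2 and Nr4a3. They were chosen by name, found through their Ensembl identifiers among the 47069 gene IDs of the count files, and all 9 were among the 16392 genes that passed the low-count filter in the KO and WT libraries. Hippocampal mRNA of male mice aged 2 to 4 months was sequenced in 18 libraries, 3 in each of 6 groups, and each library held tissue pooled from 3 mice. KO mice carried a null allele of Kdm5c, an X-linked gene for a histone H3 lysine demethylase, in all tissues (Kdm5c-/y), and were compared with wild-type (WT) mice on the same mixed C57/129 F1 background. Mice of both genotypes were taken after 1 h of novelty (KO novelty, WT novelty), in which a single animal explored a white box with tubing and toys, or without treatment (KO untreated, WT untreated). The ifKO group came from mice with floxed Kdm5c (Kdm5cf/f) and a tamoxifen-dependent Cre recombinase under the CaMKIIα promoter, which is active in excitatory neurons of the forebrain. The label gives their genotype as Kdm5c -/-. Both notations are those of a paired gene, although males carry a single X chromosome. The ifKO mice were untreated, were kept on a C57BL/6J background, and were compared with untreated control mice, for which the sources used here state neither Cre nor tamoxifen. As for KO and WT, untreated means without novelty and does not speak to tamoxifen. The comparisons ask how far exploration raised these genes in either genotype, and whether their levels differed between mutant and control animals before and after it.

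Egr and Nr4a genes are immediate early genes. In neurons, calcium entry and MAP kinase signalling act on factors that are already present, such as CREB and SRF, and these switch the genes on within minutes without new protein synthesis. Egr proteins bind GC-rich sites and are best known in the hippocampus for roles in plasticity and memory. Nab1 and Nab2 bind Egr proteins and repress transcription at their targets, and Nab2 is itself an Egr target, which closes a negative feedback loop. Nr4a proteins are orphan nuclear receptors that act without a known physiological ligand, as monomers, dimers or partners of RXR, and are needed for the consolidation of long-term memory.

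The stretches upstream of start sites are shown because at least 1 window of each inducible gene in the table holds matches to the element that CREB binds. The RefSeq promoter table (build GRCm38.p6) held 11 windows for 7 of the 9 genes, each reaching from 250 bases before to 50 bases after a start site. Capitals mark the CRE half-site TGACG on either strand (CGTCA where it lies on the other strand) and, in Egr2, also the CArG box bound by SRF. The letters are given in the direction of transcription, and only bases outside exons of the GENCODE M21 annotation are printed. The Nr4a1 stretch (chr15:101266596-101266845, + strand) and the Egr2 stretch (chr10:67537619-67537868, + strand) lie inside the annotated genes, before an internal start site. The Nr4a2 stretch (chr2:57124004-57124253, - strand), the Egr4 stretch (chr6:85513590-85513839, - strand) and the 98 bases of Nr4a3 (chr4:48045055-48045152, + strand) end at the base next to the annotated gene.
Nr4a1: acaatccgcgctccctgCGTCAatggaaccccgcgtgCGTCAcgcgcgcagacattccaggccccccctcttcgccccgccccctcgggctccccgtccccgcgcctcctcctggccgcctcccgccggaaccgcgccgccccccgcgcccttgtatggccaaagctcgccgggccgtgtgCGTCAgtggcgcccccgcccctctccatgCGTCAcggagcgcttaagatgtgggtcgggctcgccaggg
Nr4a2: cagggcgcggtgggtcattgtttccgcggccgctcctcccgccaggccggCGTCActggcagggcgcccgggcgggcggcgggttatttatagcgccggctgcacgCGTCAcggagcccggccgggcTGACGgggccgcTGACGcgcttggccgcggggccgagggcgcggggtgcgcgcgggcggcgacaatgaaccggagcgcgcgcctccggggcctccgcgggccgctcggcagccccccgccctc
Nr4a3: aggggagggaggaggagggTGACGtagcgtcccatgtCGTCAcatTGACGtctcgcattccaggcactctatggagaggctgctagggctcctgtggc
Egr2: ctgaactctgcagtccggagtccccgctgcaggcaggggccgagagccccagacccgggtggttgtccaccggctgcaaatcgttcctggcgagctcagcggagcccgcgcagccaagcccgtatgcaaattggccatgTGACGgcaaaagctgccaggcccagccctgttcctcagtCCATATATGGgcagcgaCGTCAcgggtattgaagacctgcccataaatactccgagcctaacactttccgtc
Egr4: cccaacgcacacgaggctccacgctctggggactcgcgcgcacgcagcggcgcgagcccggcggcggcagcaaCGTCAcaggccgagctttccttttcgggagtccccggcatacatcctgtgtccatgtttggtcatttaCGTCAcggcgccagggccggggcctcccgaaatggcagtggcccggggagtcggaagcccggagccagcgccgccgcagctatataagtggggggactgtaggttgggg

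The whole windows of Nr4a1, Nr4a2 and Nr4a3 each held 4 CRE half-sites, a number reached by 0.231% of the 32851 promoter windows of the table. The printed 98 bases of Nr4a3 hold 3 of its 4. The Egr4 window and the Egr2 window shown above held 2 half-sites each, as 5.01% of all windows did or exceeded, and 20.8% of all windows held at least 1. Of the 5 Egr2 windows 3 held 2 half-sites. These 3 overlap, starting at 67537619, 67537620 and 67537680, and hold the same 2 half-sites and the same CArG box. The other 2 held 0 half-sites, among them the one at the annotated start of the gene, which held no CArG box either. The Egr2 window shown also held a CArG box, present in 1.63% of windows. The full palindrome TGACGTCA, in which 2 half-sites overlap, was found in 1.79% of all windows and in none of the 11. Nab1 held 3 matches to the Egr site GCGNGGGCG, a number reached by 0.195% of windows, and Nr4a1 and Nr4a2 held 1 each, against 5.55% of all windows with at least 1. The Nr4a response element AAAGGTCA occurred in 1.51% of windows and in none of the 11. In none of these windows did a CRE half-site overlap a CArG box or an Egr site. These are matches of letters and not measured binding.

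The counts assigned to genes were 16 to 45.6 M per library. Markers of dentate granule cells, of CA1 and of CA2 and CA3 were counted in every group, and no gene of the 13 marker lists was at 0 in all libraries of a group. Kdm5c itself had 75.4 to 76.3 CPM in KO untreated and 74.2 to 76.4 CPM in WT untreated libraries, but 77.8 to 86.5 CPM in KO novelty and 90.2 to 100.04 CPM in WT novelty libraries, which did not overlap. The deposited value is a sum over the whole gene and the sources used here do not name the deleted exons, so it does not check the genotype labels. Among the novelty libraries, WT 1 and KO 2 were set apart by an earlier analysis. In WT novelty library 1, genes in the upper quartile of GC content lay 0.36 higher relative to those in the lower quartile than in the mean of its group (medians on the log2 scale), and in KO novelty library 2 that difference was -0.22. That difference was -0.25 to 0.16 in the other 4 novelty libraries and -0.11 to 0.11 in the 6 untreated KO and WT libraries. The value of -0.25 belongs to WT novelty library 2, so this measure does not set KO novelty library 2 apart. Results with and without both libraries are given below because of the earlier analysis, whose criterion is not given here.

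**Figure D1:**
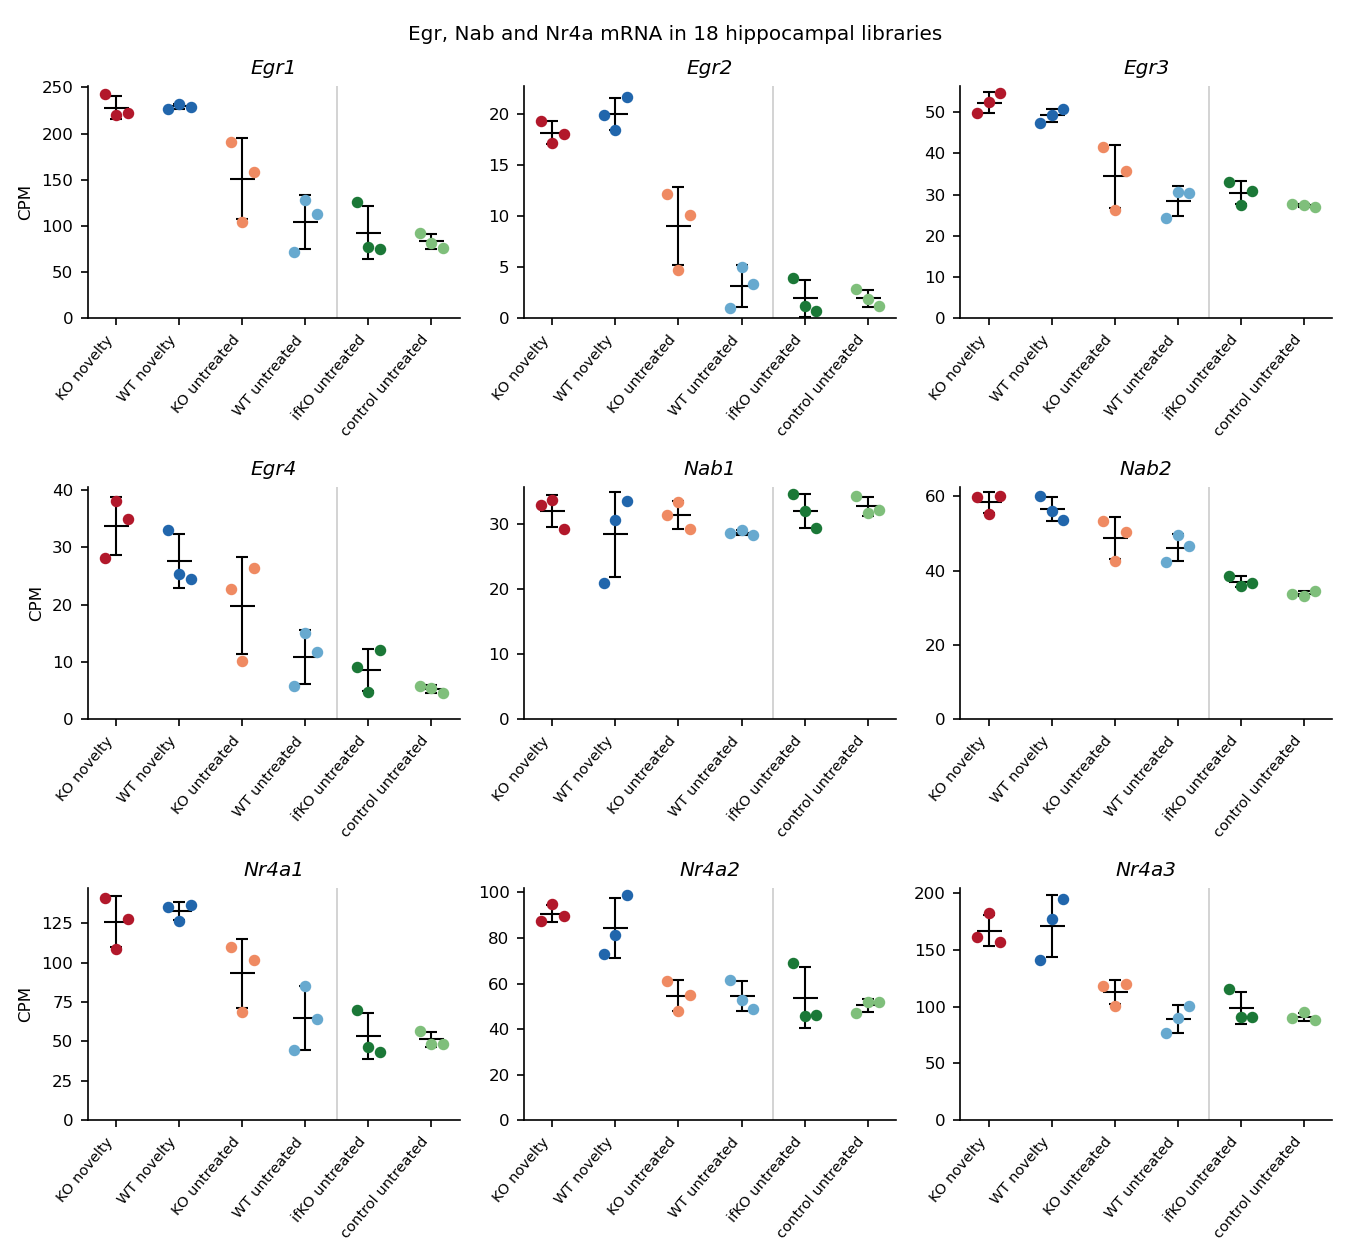
Level of each gene in counts per M counted reads (CPM, y axis from 0) in the 3 libraries of each group. Points are libraries, black bars are the mean ± SD, and the grey line separates the KO and WT libraries from the inducible line. The 6 novelty points of Egr1 lie between 219.8 and 243 CPM, above all 12 untreated points.

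Per length, Egr1 was the most abundant of the 9 mRNAs in all 6 groups. In WT novelty libraries it averaged 51.2 ± 0.54 reads per kilobase of exon and M counted reads (RPKM, mean ± SD, n = 3), followed by Nr4a1 with 37.9 ± 1.59, Nr4a3 with 28.6 ± 4.57, Nr4a2 with 20.8 ± 3.26 and Nab2 with 19.2 ± 1.13 RPKM. Egr4 with 12.8 ± 2.21 and Egr3 with 11.2 ± 0.38 RPKM came next, and Nab1 with 6.93 ± 1.61 and Egr2 with 5.90 ± 0.47 RPKM last. In this order the libraries of neighbouring genes did not overlap between Egr1 and Nr4a1, Nr4a1 and Nr4a3, Nab2 and Egr4, and Egr3 and Nab1. The other neighbours overlapped. In WT untreated libraries Egr1 had 23.2 ± 6.48 RPKM and Nr4a1 18.5 ± 5.79 RPKM. Nab2, Nr4a3 and Nr4a2 followed at 15.7 ± 1.26, 14.9 ± 2.03 and 13.4 ± 1.62 RPKM, then Nab1, Egr3 and Egr4 at 6.99 ± 0.10, 6.47 ± 0.83 and 5.07 ± 2.17 RPKM. Egr2 stood last with 0.93 ± 0.60 RPKM. Here neighbours overlapped except Nr4a2 and Nab1, and Egr4 and Egr2.

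After 1 h of novelty most of the Egr and Nr4a mRNAs rose. In WT mice 6 of the 9 genes passed the test of edgeR's quasi-likelihood model (adjusted p under 0.05 over all tested genes), all upward: Egr1, Egr2, Egr3, Nr4a1, Nr4a2 and Nr4a3. Over all tested genes 0.348% were called higher in that comparison. The median log2 fold change of the 9 genes was 0.94, beside -0.0022 for all tested genes. Averaged over both genotypes, 7 of 9 were called higher against 1.07% of all tested genes, the 6 above and Egr4.

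Egr1, the member most used as a marker of neuronal activity (chr18:34859823-34864984, + strand), had 227, 232 and 229 CPM in WT novelty libraries 1, 2 and 3, against 71.8, 128 and 113 CPM in WT untreated libraries. All 3 novelty libraries lay above all untreated ones, and within 5 CPM of each other. The rise was 2.20-fold (log2 1.14 ± 0.20 SE, adjusted p = 0.0345 by edgeR's quasi-likelihood test). In KO mice Egr1 had 243, 219.8 and 222 CPM in novelty libraries and 191, 104 and 159 CPM in untreated libraries. The groups did not overlap, but the untreated values were wide apart and the log2 fold change of 0.59 ± 0.20 did not pass (adjusted p = 0.514).

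Egr2 (chr10:67535475-67542188, + strand), known for its part in hindbrain and Schwann cell development and also induced in neurons, had the steepest change. It stood at 19.9, 18.5 and 21.7 CPM in WT novelty libraries, against 0.99, 5.07 and 3.40 CPM in WT untreated libraries, the lowest of these resting on 16 counts. Every novelty library had more than 3 times the highest untreated level, and the log2 fold change of 2.60 ± 0.36 (adjusted p = 0.00973) was the 2nd largest rise among all tested genes. In KO mice Egr2 had 19.4, 17.2 and 18.1 CPM in novelty libraries and 12.2, 4.76 and 10.1 CPM in untreated libraries. These did not overlap either, and the log2 fold change was 0.98 ± 0.32 (adjusted p = 0.481).

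Egr3 (chr14:70077203-70082614, + strand), an inducible factor also needed for muscle spindles, had 47.5, 49.4 and 50.8 CPM in WT novelty libraries and 24.3, 30.7 and 30.5 CPM in WT untreated libraries (log2 0.78 ± 0.13, adjusted p = 0.0284). In KO mice it had 49.7, 52.5 and 54.7 CPM in novelty libraries and 41.5, 26.2 and 35.7 CPM in untreated libraries (log2 0.59 ± 0.13, adjusted p = 0.168). Neither pair of groups overlapped. Egr4 (chr6:85511121-85513589, - strand), the remaining inducible factor of the family, had 33.0, 25.3 and 24.4 CPM in WT novelty libraries and 5.86, 15.1 and 11.7 CPM in WT untreated libraries. Its log2 fold change in WT was 1.32 ± 0.32 (adjusted p = 0.107), larger in size than that of Egr1 but with a wider error. In KO it was 0.75 ± 0.30 (adjusted p = 0.678), from 28.1, 38.1 and 35.0 CPM in novelty libraries and 22.7, 10.2 and 26.4 CPM in untreated libraries. Egr4 was called only for the mean over both genotypes (log2 1.03 ± 0.22, adjusted p = 0.0387).

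All 3 Nr4a genes passed the test in WT. Nr4a1 (chr15:101254269-101274795, + strand), the receptor also called Nur77, had 135, 126.5 and 137 CPM in WT novelty libraries and 44.8, 85.5 and 64.6 CPM in WT untreated libraries (log2 1.03 ± 0.20, adjusted p = 0.0476). In KO mice it had 141, 109.0 and 128 CPM in novelty libraries, and 109.8, 68.6 and 102 CPM in untreated libraries. KO untreated library 1 lay above KO novelty library 2 here, so Nr4a1 was the one inducible member whose KO groups overlapped, and its log2 fold change in KO was 0.43 ± 0.20 (adjusted p = 0.738).

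Nr4a2 (chr2:57106830-57124003, - strand), the receptor Nurr1 that midbrain dopamine neurons need for their development, was the one member called in both genotypes. In KO mice it had 87.6, 94.8 and 89.6 CPM in novelty libraries and 61.3, 47.8 and 54.9 CPM in untreated libraries (log2 0.73 ± 0.12, adjusted p = 0.0363). In WT mice it had 73.2, 81.3 and 99.0 CPM in novelty libraries and 61.6, 52.7 and 48.8 CPM in untreated libraries (log2 0.64 ± 0.12, adjusted p = 0.0394). It stood clear of the untreated range in all 6 novelty libraries.

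Nr4a3 (chr4:48045153-48086447, + strand), the receptor Nor1, had 141, 177 and 195 CPM in WT novelty libraries and 76.7, 90.2 and 101 CPM in WT untreated libraries (log2 0.94 ± 0.12, adjusted p = 0.00973). In KO mice it had 162, 183 and 157 CPM in novelty libraries and 118, 101 and 119.7 CPM in untreated libraries (log2 0.56 ± 0.12, adjusted p = 0.158). The groups of either genotype did not overlap.

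By edgeR neither corepressor passed the test. Nab2 (chr10:127660918-127668568, - strand) had 59.8, 55.2 and 60.1 CPM in KO novelty libraries and 53.4, 42.5 and 50.4 CPM in KO untreated libraries, and 60.1, 56.1 and 53.5 CPM in WT novelty libraries against 42.2, 49.6 and 46.7 CPM in WT untreated libraries. Its novelty libraries were above the untreated ones in both genotypes, with a mean log2 fold change of 0.27 ± 0.06 (adjusted p = 0.0538). That mean effect was called in 6 of 20 alternatives, among them DESeq2 (adjusted p = 0.00841) and offsets for GC content and length (adjusted p = 0.00191), which also called Nab2 in WT (adjusted p = 0.0168). Nab2 shares 1668 bases with Nemp1 and 40 with Stat6 on the opposite strand, and since the sources used here do not state the strand setting of the counting, some of its counts could belong to them. Nab1 (chr1:52457294-52500679, - strand) had 33.0, 33.8 and 29.2 CPM in KO novelty libraries and 31.5, 33.4 and 29.2 CPM in KO untreated libraries. In WT it had 20.98, 30.6 and 33.6 CPM in novelty libraries and 28.7, 29.1 and 28.3 CPM in untreated libraries. The low value belongs to WT novelty library 1, which stood apart, and the mean log2 fold change of Nab1 was 0.01 with a 95% interval of -0.20 to 0.21.

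In KO mice only Nr4a2 was called, 1 of 9 against 0.110% of all tested genes called higher, although all 9 log2 fold changes were positive and their median was 0.59, beside 0.0048 for all tested genes. DESeq2 called 3 higher in KO (Egr3, Nr4a2 and Nr4a3) and 6 in WT, beside 0.375% and 1.18% of the genes to which it gave an adjusted p, and 8 for the mean (all but Nab1), beside 1.86%. By the libraries alone, 7 of 9 genes in KO (all but Nab1 and Nr4a1) had every novelty library above every untreated one, as did 8.60% of all tested genes, and 8 of 9 in WT (all but Nab1), as did 8.30%. The KO and WT novelty effects were set against each other by an interaction term, and none of the 9 genes was called, as none of the tested genes was (0%) by edgeR or DESeq2, while 3.43% had an unadjusted p under 0.05. The largest difference was that of Egr2 (log2 -1.62 ± 0.48, unadjusted p = 0.00474, adjusted p = 1.00), and no other member was under an unadjusted p of 0.05. Without both novelty libraries that stood apart edgeR called 331 of 16556 tested genes but none of the 9. Nr4a3 came nearest (log2 -0.56 ± 0.14, adjusted p = 0.0527), then Egr2 (log2 -1.59 ± 0.50, adjusted p = 0.103). Without a low-count filter Egr2 was among the 8 genes called of 28595 tested (log2 -1.64 ± 0.28, adjusted p = 0.00229). The mean novelty calls of Egr1, Egr2, Egr3, Nr4a2 and Nr4a3 held in all 20 alternatives that were run, among them leaving out each library in turn.

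The number of calls within a genotype changed with single libraries left out. Without WT untreated libraries 1, 2 and 3 in turn 1, 3 and 1 members were called in WT, and without WT novelty libraries 1, 2 and 3 in turn 5, 2 and 0. Over all tested genes 4 to 102 were called in these fits in either direction, against 63 with all libraries. Without any 1 of the 6 KO libraries none was called in KO. Over all tested genes 1 to 10 were then called, against 18 with all libraries. Without both novelty libraries that stood apart 6 were called in WT, 2 in KO (Nr4a2 and Nr4a3) and 8 for the mean over both, Nab2 now among them. Over all 16556 genes tested in that fit 451, 63 and 454 were called. The mean call of Egr4 was lost without any of WT untreated libraries 1 and 3, KO untreated library 1, WT novelty libraries 1 and 3, or any KO novelty library, with an adjusted p of at most 0.0978. That of Nr4a1 was lost without WT untreated library 3, KO untreated library 3, WT novelty library 3, or KO novelty libraries 1 or 3, with an adjusted p of at most 0.0730.

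Of 13 summed marker lists, 2 did not overlap between novelty and untreated libraries in KO and 3 in WT. In KO astrocyte markers were 5305 to 5417 CPM in novelty and 5511 to 5735 CPM in untreated libraries, and striatal markers 65.6 to 71.4 CPM and 64.0 to 65.5 CPM. In WT markers of the oligodendrocyte lineage were 2876 to 3263 CPM in novelty and 3372 to 3663 CPM in untreated libraries. Endothelial markers were 177 to 209.9 CPM in WT novelty and 232 to 234 CPM in WT untreated libraries, and excitatory neuron markers 7530 to 8192 CPM and 7075 to 7189 CPM in the same groups. Their part in the changes above was not tested. In such bulk tissue fewer cells of a type and less RNA per cell cannot be told apart.

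**Figure D2:**
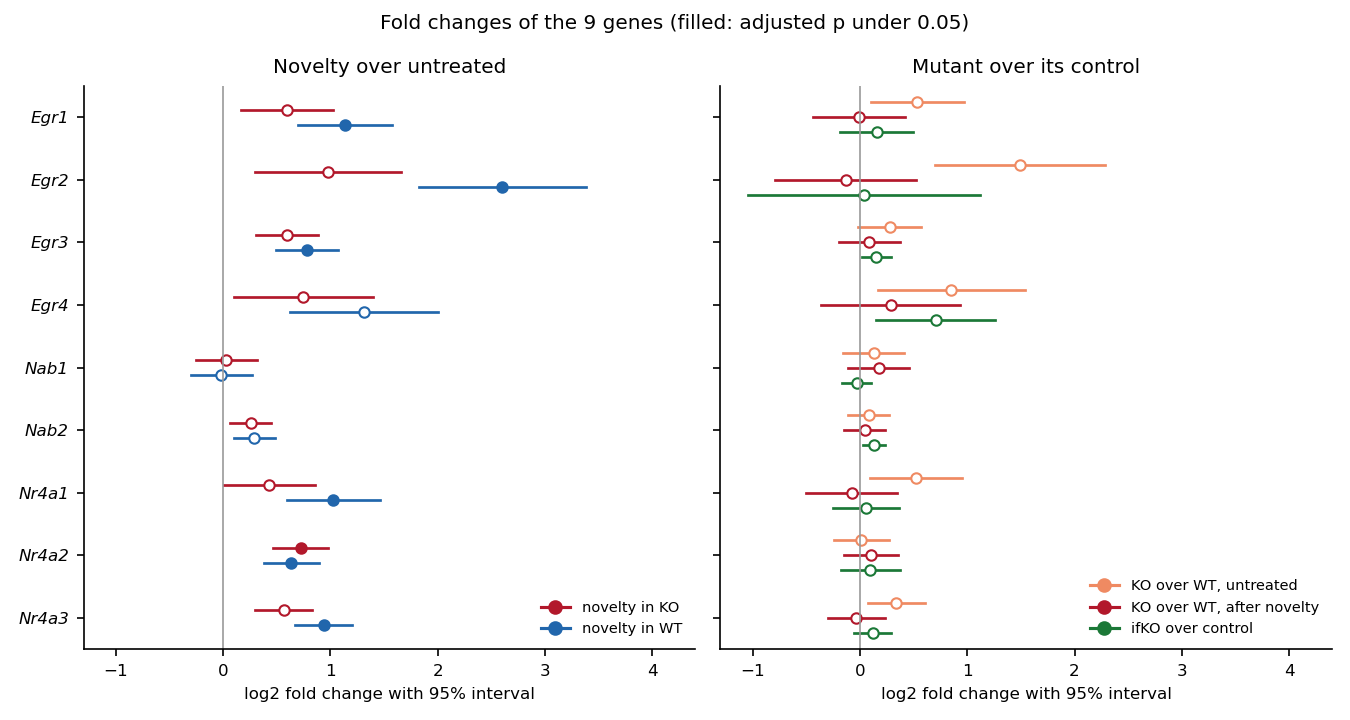
Log2 fold change of each gene (x axis) with its 95% interval, for novelty over untreated in KO and WT (left) and for the mutants over their controls (right). Filled circles have an adjusted p under 0.05: 1 gene in KO and 6 in WT on the left, none on the right.

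For most of the genes the 6 KO and WT libraries lay closer together after novelty than in untreated mice. Over the 6 novelty libraries of KO and WT, the highest Egr1 level was 1.10 times the lowest, but over the 6 untreated libraries it was 2.66 times. For Egr2 the ratios were 1.26 and 12.4, for Egr3 1.15 and 1.71, for Egr4 1.56 and 4.5, and for Nr4a1 1.3 and 2.45. Nr4a3 had ratios of 1.38 and 1.56 and Nab2 of 1.12 and 1.26, whereas Nr4a2 with 1.35 and 1.29 and Nab1 with 1.61 and 1.18 were not tighter after novelty. So 7 of the 9 genes had the smaller ratio after novelty, as had 27.0% of the 14290 genes with a mean of at least 1 CPM in both conditions. The median ratio of these 14290 genes was 1.32 over the novelty libraries and 1.22 over the untreated ones. In each of the 7 genes the highest untreated library was a KO and the lowest a WT library. Egr2 ran from 4.76 to 12.2 CPM in KO untreated libraries alone, and from 0.99 (16 counts) to 5.07 CPM in WT untreated libraries alone. These ratios thus do not separate the spread between libraries from the difference between genotypes.

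**Figure D3:**
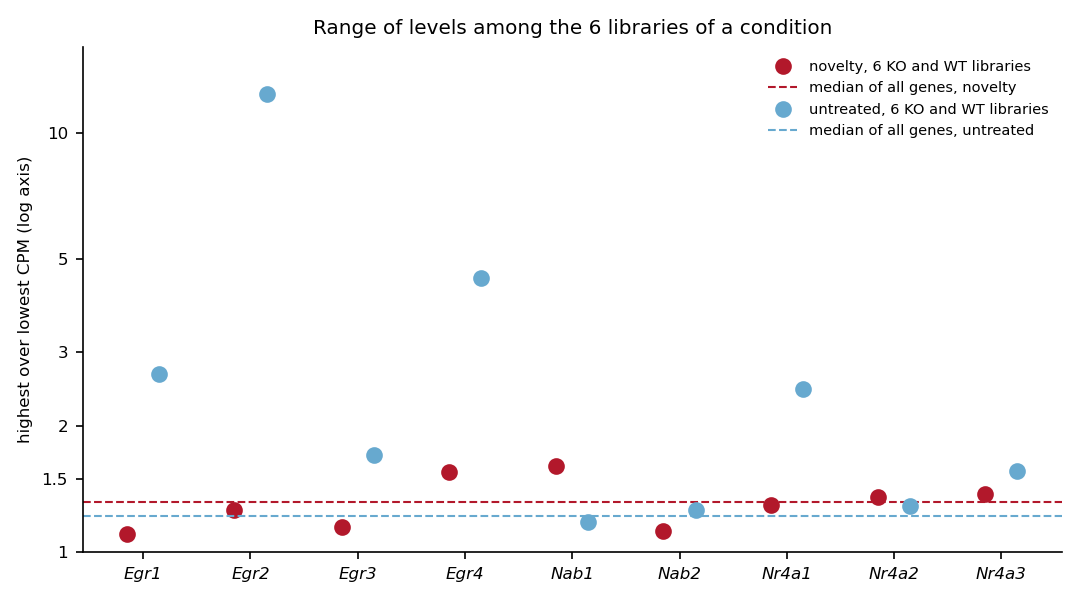
Highest over lowest CPM of each gene (y axis, log scale) among the 6 novelty libraries and among the 6 untreated libraries of KO and WT. Dashed lines are the medians over all genes with a mean of at least 1 CPM in that condition. For Egr2 the ratio was 1.26 after novelty and 12.4 untreated, the latter that of KO library 1 over WT library 1.

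In the untreated KO and WT groups 5 of the 8 other genes shared the library order of Egr1, as did 14.9% of all tested genes in KO and 21.4% in WT. In KO untreated mice library 2 was the lowest for 8 of the 9 genes and the highest for Nab1. Egr2, Egr3, Nab2, Nr4a1 and Nr4a2 shared the full order of Egr1, with library 1 highest. In WT untreated mice library 1 was the lowest and library 2 the highest for Egr1 and for 5 of the 8 other genes (Egr2, Egr3, Egr4, Nab2 and Nr4a1). Nr4a2 ran the other way there, with library 1 at 61.6 CPM as its highest. After novelty the order of Egr1 was shared by 2 of the 8 other genes in KO and by 0 in WT, beside 17.3% and 25.3% of all tested genes. In the inducible line it was shared by 3 of 8 in ifKO and 4 of 8 in control libraries, beside 18.2% and 16.5%. The GC measure given above was -0.11 in KO untreated library 2, against 0.02 and 0.10 in KO untreated libraries 1 and 3, and 0.11 in WT untreated library 2, against -0.08 and -0.04 in WT untreated libraries 1 and 3. In both groups it was thus lowest in the library with the least Egr1 and, in WT, highest in the one with the most, and its part in the order was not tested.

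**Figure D4:**
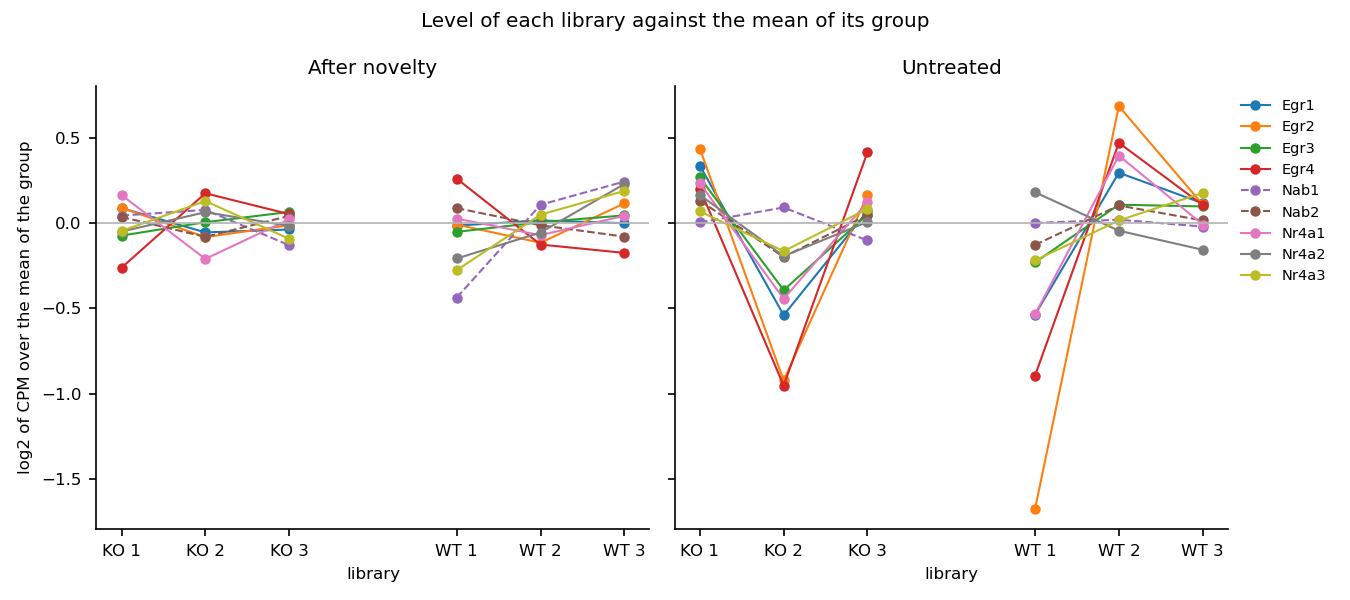
Log2 of the CPM of each library over the mean of its group (y axis), by library (x axis), for the 9 genes after novelty (left) and untreated (right). Lines join the 3 libraries of a group for 1 gene and dashed lines are the corepressors. In untreated mice KO library 2 and WT library 1 lie low for Egr1, Egr2, Egr3, Egr4 and Nr4a1.

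Before exploration, KO mice had higher mean levels of all 9 genes than WT mice, but none of the 9 passed the test. Their median log2 fold change was 0.34, beside 0.0014 for all tested genes. Most of the 9 ran alike over the libraries, as given below, so their directions are not separate measurements. Of all tested genes 1.24% were called in either direction in this comparison, and of the 9 genes 0. The largest difference was that of Egr2, with 12.2, 4.76 and 10.1 CPM in KO untreated and 0.99, 5.07 and 3.40 CPM in WT untreated libraries, a log2 fold change of 1.49 ± 0.37 (95% interval 0.70 to 2.28, adjusted p = 0.0821 by edgeR's quasi-likelihood test). KO library 2 lay below WT library 2, so the groups overlapped. Egr4 had a log2 fold change of 0.85 ± 0.32, Egr1 of 0.54 ± 0.20, Nr4a1 of 0.52 ± 0.20 and Nr4a3 of 0.34 ± 0.12, with adjusted p-values of 0.408, 0.405, 0.420 and 0.393. These 5 of 9 genes had an unadjusted p under 0.05, as had 8.66% of all tested genes, and DESeq2 called 0. Nr4a2 lay at 0.01 ± 0.12. The one gene whose KO libraries were all above the WT libraries was Nab1, by a narrow margin (29.2 to 33.4 CPM in KO and 28.3 to 29.1 CPM in WT), as 11.6% of all tested genes were.

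The call of untreated Egr2 depended on the processing and on the libraries, and was made in 5 of 15 alternatives. With all libraries it passed with offsets for GC content and length (log2 1.51 ± 0.33, adjusted p = 0.0216) and without a low-count filter (log2 1.49 ± 0.21, adjusted p = 7.68e-07). The log2 fold change without the filter was the same as with it, and only the error was smaller than ± 0.37. Egr1, Egr4 and Nr4a1 were also called without the filter, among 347 of 28595 tested genes. Egr2 also passed without KO untreated library 2, which was the lowest of its group (log2 1.77 ± 0.32, adjusted p = 0.0159), and without both novelty libraries that stood apart (log2 1.49 ± 0.36, adjusted p = 0.0426). Of the 13 summed marker lists 9 did not overlap between the genotypes in untreated mice. Excitatory neuron markers were 7529 to 8016 CPM in KO and 7075 to 7189 CPM in WT, those of CA2 and CA3 238 to 251 CPM and 208 to 237 CPM, and inhibitory neuron markers 607 to 675 CPM and 687 to 764 CPM. Astrocyte markers were 5511 to 5735 CPM in KO and 4608 to 5127 CPM in WT, microglial markers 271.4 to 292 CPM and 259.6 to 270.9 CPM, and markers of the oligodendrocyte lineage 2598 to 2933 CPM and 3372 to 3663 CPM. Striatal markers were 64.0 to 65.5 CPM in KO and 57.8 to 63.9 CPM in WT, and neocortical markers 151 to 158.3 CPM and 158.5 to 186 CPM. Choroid plexus markers were 621 CPM in KO untreated library 2 and 37.5 to 79.0 CPM in the other 5, with 7 of 7 genes counted. Their part in these differences was not tested.

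After novelty no difference between the genotypes passed the test. By edgeR 0 of the 9 genes were called against 1.34% of all tested genes, 0 had an unadjusted p under 0.05 (8.73% of all tested genes) and DESeq2 called 0. None of the 9 had all KO libraries above all WT libraries, as 6.64% of all tested genes had. Egr1 averaged 228 ± 12.5 CPM in KO and 229 ± 2.41 CPM in WT (SD, n = 3 each), with a log2 fold change of -0.01 and a 95% interval of -0.43 to 0.42. Egr2 averaged 18.2 ± 1.10 CPM in KO and 20.1 ± 1.61 CPM in WT (log2 -0.13 ± 0.31). Of the 13 marker lists 1 did not overlap here, that of astrocytes, at 5305 to 5417 CPM in KO and 4322 to 5204 CPM in WT, and its part was not tested. The largest log2 difference was that of Egr4, 0.29 with an interval of -0.36 to 0.93, and all 9 intervals included 0. The untreated KO and WT libraries serve both in the genotype comparison and in the novelty effects, so a higher untreated level in KO and a smaller novelty effect in KO are not separate measurements.

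In the inducible line, where deletion of Kdm5c is directed to forebrain neurons, no difference from control mice passed the test. Egr1 had 125, 77.2 and 75.2 CPM in ifKO and 92.0, 82.0 and 76.0 CPM in control libraries (log2 0.16 ± 0.16). Nr4a1 had 70.0, 46.7 and 43.0 CPM in ifKO and 56.9, 48.6 and 48.6 CPM in control libraries (log2 0.06 ± 0.14). Egr2 was low in both, with 4.00, 1.17 and 0.69 CPM in ifKO and 2.82, 1.88 and 1.2 CPM in control libraries. In ifKO library 1 the levels of Egr1, Egr2, Egr3, Nab1, Nab2, Nr4a1, Nr4a2 and Nr4a3 were the highest of that group.

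Egr4 had the largest log2 difference in that line, 0.71 ± 0.25 (adjusted p = 0.538), from 9.11, 4.68 and 12 CPM in ifKO and 5.8, 5.49 and 4.53 CPM in control libraries. Of the 9 genes 0 were called by edgeR or DESeq2, against 0.645% of tested genes called in either direction by edgeR, and 3 had an unadjusted p under 0.05, as had 6.64% of tested genes. Egr4 passed when ifKO library 2 was left out (log2 1.00 ± 0.14, adjusted p = 0.00892). Nab2 was the one gene with all ifKO libraries above all control libraries, at 35.9 to 38.6 CPM and 33.2 to 34.6 CPM, as 6.55% of tested genes were (log2 0.13 ± 0.05, adjusted p = 0.523). Of the 13 marker lists 3 did not overlap in this line: excitatory neuron markers were 5912 to 6186 CPM in ifKO and 5388 to 5782 CPM in control libraries, inhibitory neuron markers 739.8 to 752 CPM and 770.1 to 785 CPM, and astrocyte markers 5015 to 5136 CPM and 4856 to 5010 CPM. Choroid plexus markers were 38.9 to 78.5 CPM in the ifKO libraries and 396 CPM in control library 1, against 46.3 and 67.9 CPM in control libraries 2 and 3. Their part in these values was not tested. The inducible line differed from the KO and WT libraries in background, read length and flowcell and was fitted alone, so levels are not compared across them.

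Few genes that act before or with these factors passed the test. Of 24 upstream regulators, among them Creb1 and its coactivators, the MAP kinases and SRF with its partners, 0 were called by edgeR in either genotype. An unadjusted p under 0.05 was found for 2 in KO and 3 in WT, beside 6.71% and 10.96% of all tested genes. For the mean over both genotypes edgeR called 1, Srf itself, beside 1.07% of all tested genes called higher. DESeq2 called 0 in either genotype and 2 for the mean, Srf and Crem. It called 1.86% of the genes with an adjusted p higher for the mean. Srf, which encodes the factor that binds CArG boxes, had 64.7, 64.2 and 72.4 CPM in KO novelty and 60, 54.6 and 60.3 CPM in KO untreated libraries, and 71.6, 65.5 and 70.5 CPM in WT novelty and 51.7, 59.0 and 59.2 CPM in WT untreated libraries (mean log2 0.24 ± 0.05, adjusted p = 0.0478). Of 9 partners and corepressors, the RXR receptors and the NuRD and CoREST components that Nab2 and Nr4a2 recruit, 0 were called by edgeR or DESeq2 in any comparison. For the mean novelty effect 2 of these 9 had an unadjusted p under 0.05, beside 13.5% of all tested genes. The median log2 fold change of the mean novelty effect was 0.04 in the first list and 0.03 in the second.

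Of 13 genes reported as Egr targets, 2 were called higher for the mean novelty effect and 11 were not called, beside 1.07% of all tested genes called higher. Arc, whose product trims AMPA receptors from synapses, had 407, 292 and 370 CPM in KO novelty and 307, 146 and 275 CPM in KO untreated libraries. In WT it had 385, 318 and 377 CPM in novelty and 73.1, 205 and 144 CPM in untreated libraries (mean log2 0.95 ± 0.22, adjusted p = 0.0498). Cdkn1a, the cell cycle inhibitor p21, had 14, 11 and 12.6 CPM in KO novelty and 7.43, 7.35 and 6.60 CPM in KO untreated libraries, and was called in both genotypes (log2 0.82 ± 0.11 in KO, adjusted p = 0.0123, and 0.71 ± 0.11 in WT, adjusted p = 0.0193). The median of the list was -0.03.

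Of 13 genes reported as Nr4a targets 12 were tested, and 6 were called higher for the mean novelty effect with none lower, at a median log2 fold change of 0.43. Of all tested genes 1.07% were called higher. The list was chosen with earlier results of these data known, so its count and median are a description and no test of the list. Fosl2, an AP-1 factor, had 104, 111 and 109.0 CPM in KO novelty and 66.3, 52.3 and 57.8 CPM in KO untreated libraries, and 126, 112 and 128 CPM in WT novelty and 60.2, 65.9 and 62.7 CPM in WT untreated libraries. It was called in both genotypes (log2 0.87 ± 0.09 in KO, adjusted p = 0.00184, and 0.95 ± 0.09 in WT, adjusted p = 0.000665). The other 5 belong to protein folding in the endoplasmic reticulum: the chaperone gene Hspa5, its stress-response activator Xbp1, Sdf2l1, Pdia6 and Creld2. Hspa5 was called in both genotypes (log2 1.00 ± 0.15 in KO, adjusted p = 0.0329, and 0.83 ± 0.15 in WT, adjusted p = 0.0388). The mean log2 fold changes of Xbp1 and Sdf2l1 were 0.63 ± 0.08 and 1.00 ± 0.15, with adjusted p-values of 0.00169 and 0.00376. Bdnf, the neurotrophin gene that headed the list, had a mean log2 fold change of 0.31 ± 0.07 and an adjusted p of 0.0538. DESeq2 called 8 of the list for the mean, these 6, Bdnf and Dnajb11, and called Bdnf in WT as well. It called 1.86% of the genes with an adjusted p higher for the mean and 1.18% in WT. To 1 gene of the list it gave no adjusted p for the mean, and to 2 none in WT. By edgeR and by DESeq2 0 of the Egr or Nr4a target genes were called between genotypes. In untreated mice 3 of the 13 Egr targets and 2 of the 12 tested Nr4a targets had an unadjusted p under 0.05, beside 8.66% of all tested genes. After novelty 1 and 0 had, beside 8.73%.

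**Figure D5:**
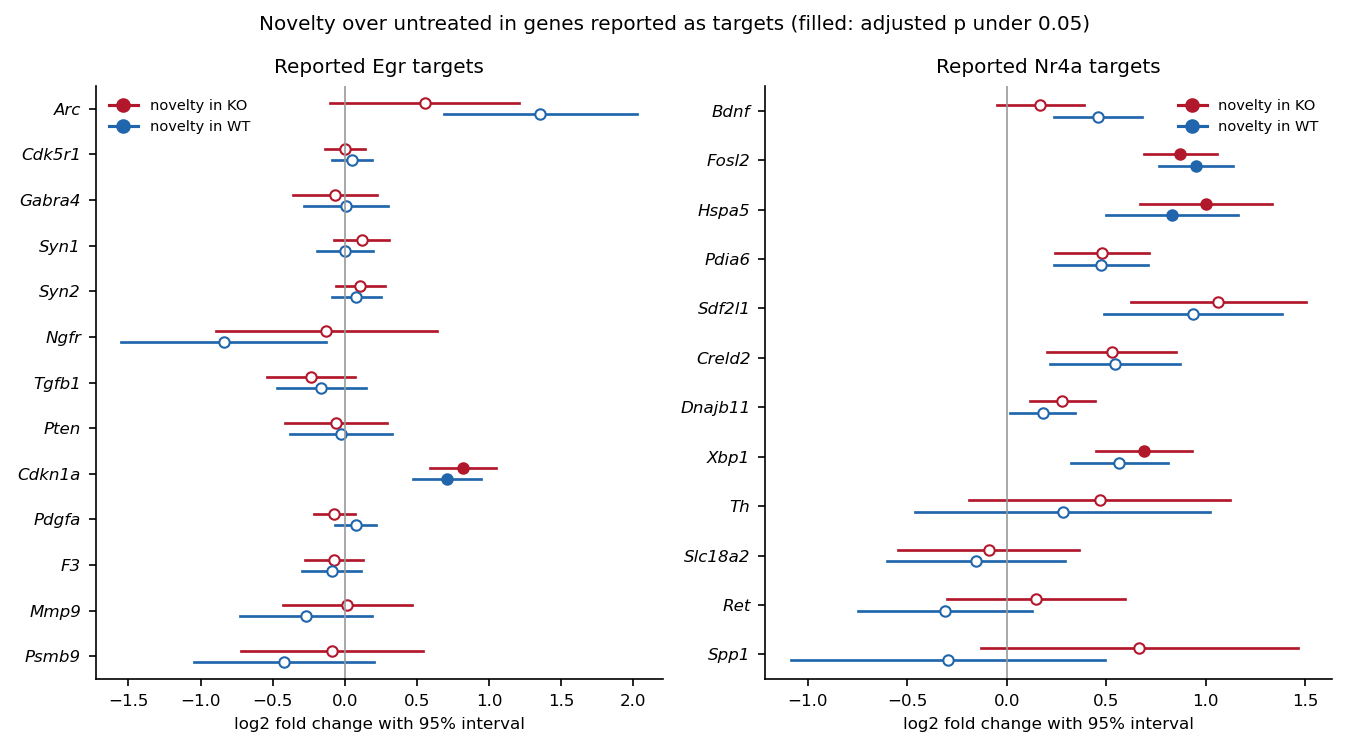
Log2 fold change of novelty over untreated (x axis) with 95% intervals in KO and WT for the genes reported as Egr targets (left) and Nr4a targets (right). Filled circles have an adjusted p under 0.05. Fosl2, Hspa5 and Cdkn1a are filled in both genotypes.

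The genes whose levels ran most like each member over the 12 KO and WT libraries were sought among 14435 genes by Pearson's r of log2 CPM, as a description that includes the novelty step itself. Arc was nearest to Nr4a1 (r = 0.99) and to Egr1 (r = 0.98), and Fos to Egr2 (r = 0.98). Fosb was nearest to Egr3 (r = 0.97) and Junb to Egr4 (r = 0.98). Nab2 ran with Midn, Kdm6b and Slc41a1 (r = 0.97, 0.96 and 0.95). Nr4a3 was most like Chka (r = 0.97), and Nr4a2 most like Map3k19 (r = 0.94), with Hspa5 at the 3rd place (r = 0.93). Among the members, Egr1 ran with Egr2 at r = 0.99, with Nr4a1 at 0.98, with Egr3 at 0.97, with Egr4 at 0.95, with Nab2 at 0.94, with Nr4a3 at 0.92, with Nr4a2 at 0.77 and with Nab1 at 0.04. The libraries share their groups and their depth, so these values carry no test.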

How the data were processed

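RNA of the hippocampus was sequenced in 18 libraries (24 records, because each library of the inducible line has 1 record for each read of a pair and a single count file), each from 3 pooled mice. Stranded libraries were read singly over 50 nt (KO and WT) or in pairs over 75 nt (inducible line), per the labels' protocols. The deposited values are raw counts per Ensembl gene. The submitters' processing notes name HTSeq 0.6.1, SAMtools 1.3, STAR 2.5.0c and DESeq2 and the build GRCm38. The sources used here give neither the strand setting nor the annotation release. Reads in no feature (14.7 to 17.2%) and ambiguous reads (0.765 to 1.06%) were left out. GENCODE M21 gave symbols and exons to 46488 of 47069 IDs.

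Counts were scaled by TMM and tested in R 4.3.3 with edgeR 4.0.16 (glmQLFit and glmQLFTest, filterByExpr with a minimum count of 10 and a minimum total of 15, prior count 0.125), and p-values were adjusted by Benjamini-Hochberg over every gene tested (threshold 0.05). The 12 KO and WT libraries were fitted together (16392 genes) and the 6 of the inducible line alone (17367 genes). The method was tested on simulated counts. CPM use TMM factors, RPKM divide them by exon length, and r uses log2 of CPM plus 0.5. No source says how the pooled mice were assigned, so p-values measure the spread between these libraries.

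All 9 genes are named in every comparison. From each related list up to 4 genes per comparison and direction with an adjusted p under 0.05 are named, with the 3 genes of most like pattern per member. Bdnf is named outside this rule, after its values were seen. The members and lists were chosen with earlier results of these data known. Alternatives were DESeq2 1.42.0, RLE factors, no filter, at least 1 CPM in 3 libraries, only the groups compared, a replicate block, each library left out, and both novelty libraries that stood apart left out. Offsets for GC content and length were added after seeing the data.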

Additional observations from a re-analysis of the deposited data

Results flagged for a closer look

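The KO libraries of Egr2 lay on opposite sides of the WT mean in the 2 conditions: each KO untreated library was above the WT untreated mean of 3.15 CPM (12.2, 4.76 and 10.1 CPM), and each KO novelty library was below the WT novelty mean of 20.1 CPM (19.4, 17.2 and 18.1 CPM). The difference of the novelty effect between KO and WT was -1.62 ± 0.48 on the log2 scale, with an unadjusted p of 0.00474 and an adjusted p of 1.00 by edgeR's quasi-likelihood test. That difference was called in 1 of 20 alternatives, the one without a low-count filter (adjusted p = 0.00229). The libraries themselves overlapped in both conditions, KO untreated library 2 with 4.76 CPM lying below WT untreated library 2 with 5.07 CPM, and KO novelty library 1 with 19.4 CPM above WT novelty library 2 with 18.5 CPM. Neither genotype difference passed the test by itself, that in untreated mice with log2 1.49 ± 0.37 (adjusted p = 0.0821) and that after novelty with log2 -0.13 ± 0.31 (adjusted p = 0.979). Groups of 3 libraries were too small to be searched for single deviating values.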

How the results depend on the processing

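No called value changed its sign under any alternative. Of 729 member values called in neither setting, 54 changed sign. The number of the 9 genes called moved by more than 1.5 times as follows. For novelty in WT (6) it was 0 with only the groups compared, and 0 to 5 with 1 library left out. For novelty in KO (1) it was 3 by DESeq2, 6 without a low-count filter, 2 without both novelty libraries that stood apart, 2 with offsets for GC content and length, 3 with both of these changes, and 0 to 0 with 1 library left out. For KO against WT untreated (0) it was 4 without a filter, 1 without both libraries, 1 with the offsets, 1 with both changes, and 0 to 1 with 1 library left out. For the difference of novelty effects (0) it was 1 without a filter, and for ifKO against control (0) it was 2 without a filter and 0 to 1 with 1 library left out. The mean novelty count (7) stayed at 5 to 8, and after novelty no alternative called a member between genotypes. Replicate numbers did not pair the libraries in the same way in all comparisons. Same-numbered libraries correlated at -0.36 to 0.45 in their deviations from the group means, and differently numbered ones at -0.45 to 0.37. The same-numbered values were all positive for novelty in KO and for KO against WT after novelty. They were all negative between untreated genotypes and in the inducible line. With the number as a replicate block, 2 members were called in WT, 0 in KO and 6 for the mean. The count over all genes moved more widely: 63 genes for novelty in WT became 4 to 715, 18 in KO 1 to 164, 222 for the mean 91 to 818, 204 between untreated genotypes 121 to 557, 219 after novelty 104 to 705, 0 for the difference 0 to 331, and 112 in the inducible line 56 to 398. Where a library is left out, fewer residual degrees of freedom enter the fit. Depth limits mainly Egr2, with 16 counts in WT untreated library 1.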
